A study of Mus musculus with 4 samples.

Results

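Hdac3, the other class I histone deacetylases Hdac1, Hdac2 and Hdac8, and 4 genes of the NCoR corepressor complex (Ncor1, Tbl1x, Tbl1xr1 and Gps2) were followed in mutant and control hearts of the mouse embryo. The 8 genes were chosen by name. All 16 non-control array probes that carried these names, of 39429 probes in all, passed the filter on dim probes, and the 8 genes were among 19710 genes tested.

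The mutant hearts were Nkx2.5Cre; Hdac3f/f, in which a Cre recombinase at a cardiac progenitor locus acts on both floxed copies of Hdac3, and the control hearts were Hdac3f/f, with the same floxed copies and no stated Cre. Embryos of both groups were at embryonic day 9.5, on a mixed CD1/B6/129 background, and the labels call the controls littermates in one field and wild type in others. Each of 4 two-colour Agilent arrays on 1 slide compared a pool of 3 mutant hearts with a pool of 3 control hearts, from 100 ng of total RNA, so n = 4 pairs of pools and the spread within a pool is not seen. Because Cre was stated in the mutants only, loss of Hdac3 and presence of Cre cannot be told apart, and the cells that keep an intact Hdac3 in the mutant pools were not counted.

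Class I histone deacetylases remove acetyl groups from histones and other proteins and act inside large corepressor complexes. HDAC3 is the catalytic subunit of the complex built on the scaffold NCoR (Ncor1), which activates the enzyme on binding it, and TBL1X, TBL1XR1 and GPS2 are the other core subunits. HDAC1 and HDAC2, a closely related pair, work in the SIN3, NuRD and CoREST complexes, while HDAC8 is active without such a complex and deacetylates cohesin. In the embryonic heart these enzymes are known for holding back genes as cardiac progenitors differentiate.

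The sign of every ratio below rests on the authors' deposited table, whose columns are named as mutant against wild type. The labels place mutant RNA in Cy5 on every array, yet over bright probes the deposited log2 ratios followed the ratio of Cy5 to Cy3 on arrays 1 (r = 0.932) and 2 (r = 0.940) and opposed it on arrays 3 (r = -0.992) and 4 (r = -0.951). With the deposited signs, the ratios of all genes resembled each other within a dye orientation (r = 0.54 for arrays 1 and 2, r = 0.447 for arrays 3 and 4) and not between orientations (r of -0.323 to 0.055, across genes, which are not independent replicates). Read as Cy5 over Cy3 on every array, as labelled, r was 0.495 for arrays 1 and 2, 0.455 for arrays 3 and 4, 0.324 for arrays 1 and 4, 0.132 for arrays 2 and 4, and between -0.025 and -0.023 for array 3 with arrays 1 and 2. The direction taken here follows the column names and is not settled. Values under the labelled signs are given after those of the members. Under those signs mutant RNA is in Cy5 on every array, so dye and genotype cannot be told apart.

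No gene of the 19710 passed the limma test at an adjusted p of 0.05, in either direction (0% lower and 0% higher), with 0.253 as the smallest adjusted p. At an unadjusted p under 0.05, 910 genes were lower in mutant pools (4.62%) and 767 were higher (3.89%). The ratio was below 0 on all 4 arrays for 1917 genes (9.73%) and above 0 on all 4 for 1975 genes (10.0%). Against this background, 2 of the 8 members were lower at an unadjusted p under 0.05 (Hdac3 and Hdac2) and 2 were higher (Tbl1x and Tbl1xr1), while 0 of 8 passed after adjustment over all genes. By sign, 3 members were below 0 on all 4 arrays (Hdac1, Hdac2 and Hdac3), 1 was above 0 on all 4 (Tbl1x) and 4 were mixed. The median of the 8 mean log2 ratios was -0.12, against 0.01 for all genes, whose means had an SD of 0.17. In whole hearts, fewer cells of a type and less RNA per cell cannot be told apart.

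**Figure D1:**
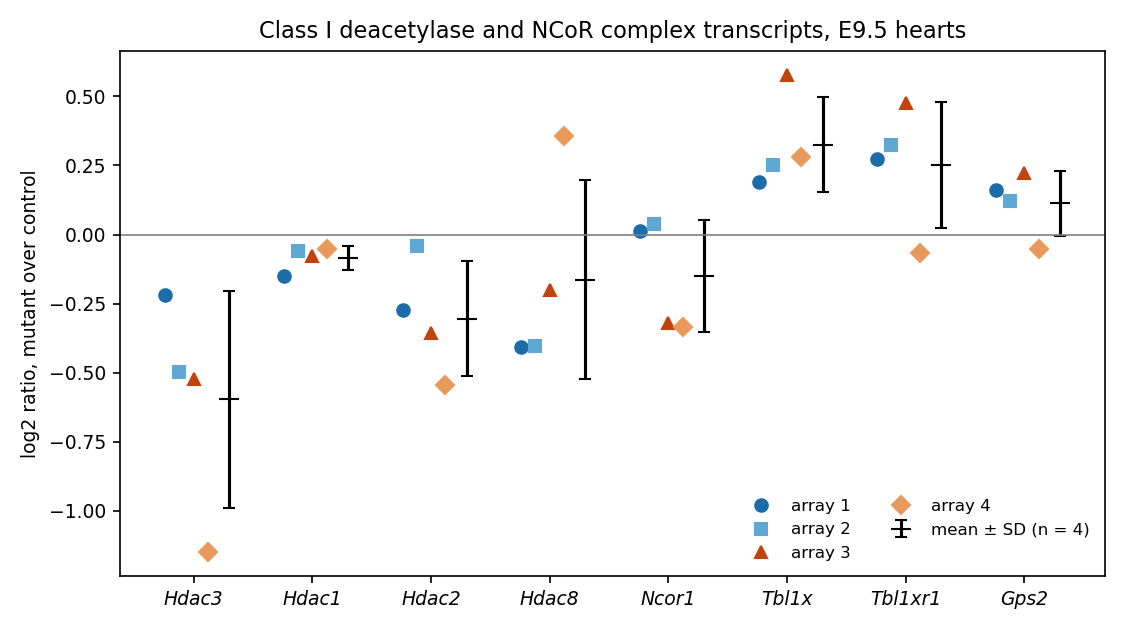
Log2 ratio of mutant over control (vertical axis) for each member gene (horizontal axis) on each of the 4 arrays, from the brightest probe, with the mean and SD of the 4 arrays in black. Hdac3 lies below 0 on every array, with array 4 lowest at -1.15, and Tbl1x lies above 0 on every array.

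The 60-base probes that stood for Hdac2 and Hdac8 both had design coordinates that span more than 60 genomic bases, as a match across an exon junction would. So did the probe that stood for Tbl1xr1 (847 genomic bases), which is not printed. No annotation of that build was used here. The Hdac2 and Hdac8 probes are shown because Hdac2 was read by many copies of its probe and because the Hdac8 result depended on which of its probes was taken. The Hdac2 probe lies at chr10:36713455-36713589 on the plus strand of mm9 and leaves out 75 genomic bases. The Hdac8 probe lies at chrX:99503070-99597969 on the minus strand of mm9 and leaves out 94840 genomic bases. Both are printed 5′ to 3′ as designed, in lower case throughout, since the sources used here place no junction within the probe.
Hdac2: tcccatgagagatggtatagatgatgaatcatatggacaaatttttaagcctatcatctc
Hdac8: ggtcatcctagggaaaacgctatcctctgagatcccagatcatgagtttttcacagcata

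Hdac3, the gene targeted in the mutants, had the lowest mean of the 8 members. Its 1 probe read log2 ratios of -0.22, -0.50, -0.52 and -1.15 on arrays 1 to 4. All 4 were below 0, and array 4 lay furthest from the others. The mean was -0.60 ± 0.39 (SD, n = 4; 95% interval -0.96 to -0.23), which is 0.661 of the control signal, and its adjusted p was 0.582 (limma). This was the 42nd lowest mean of the 19710 genes, so 0.213% of genes lay as low or lower. With mutant as Cy5 on all arrays the mean was 0.21, and 93.2% of genes lay as low or lower.

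The log2 level of Hdac3 was 9.49, 9.20, 9.76 and 8.96 in the mutant pools, against 9.71, 9.68, 10.21 and 10.05 in the control pools. Each mutant pool read below the control pool of its own array, but the mutant pool of array 3 read above the control pools of arrays 1 and 2, so the groups overlapped. The mutant pools averaged 9.35 ± 0.35 and the control pools 9.91 ± 0.26 (SD, n = 4 each). The probe is on chromosome 18 from 38096655 to 38096714 in mm9, on the minus strand. The sources used here do not say whether it lies in the exons that Cre removes. Elsewhere in the gene it would not read the removed exons, and its ratio alone would not check the deletion. The mean was -0.36 over arrays 1 and 2 and -0.84 over arrays 3 and 4, and without array 4 it was -0.41.

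Hdac1, a catalytic subunit of the SIN3 and NuRD complexes, had 3 probes within one stretch of chromosome 4. Its brightest probe (A_55_P1970775, 129193374 to 129193433 in mm9) read -0.15, -0.06, -0.08 and -0.05. The values were small and all below 0, with a mean of -0.08 ± 0.04 (SD, n = 4; 95% interval -0.25 to 0.08) and an adjusted p of 0.708 (limma). The log2 level was 14.15 to 14.35 in mutant pools, against 14.30 to 14.41 in control pools. The second probe (A_66_P128384) read -0.60 on array 1, against 0.03, 0.12 and 0.24 on the other arrays. The third (A_55_P2077608) read -0.19, 0.17, -0.22 and -0.07. The 3 probe means lay between -0.08 and -0.05, while only the brightest probe kept 1 sign on all 4 arrays, and with median centring in place of loess its mean turned to 0.05.

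Hdac2, the close partner of Hdac1, was lower in the mutant pool on every array. The means over its spots were -0.27, -0.04, -0.36 and -0.55, with array 2 near 0 and array 4 lowest. The mean over arrays was -0.30 ± 0.21 (SD, n = 4; 95% interval -0.54 to -0.07), a ratio of 0.810, with an adjusted p of 0.582 (limma). The probe was printed 10 times on each array, which separates the error between spots from that between arrays. All 10 spots were below 0 on arrays 1, 3 and 4, and 8 of 10 on array 2, where 1 spot was at 0 and 1 at 0.28. The SD between spots of 1 array was 0.104, 0.129, 0.047 and 0.070 on arrays 1 to 4, below the SD of 0.21 between arrays. Spots of 1 array share their RNA and are not replicates.

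The log2 level of Hdac2 was 7.93, 8.07, 7.99 and 8.43 in the mutant pools, against 8.19, 8.14, 8.16 and 8.94 in the control pools. Both pools of array 4 read above all other pools of their group, and the groups overlapped because the mutant pool of array 4 exceeded 3 of the control pools. As for Hdac3, the mean was further from 0 on arrays 3 and 4 (-0.45) than on arrays 1 and 2 (-0.16), and the part of the dye orientation in this was not tested.

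**Figure D2:**
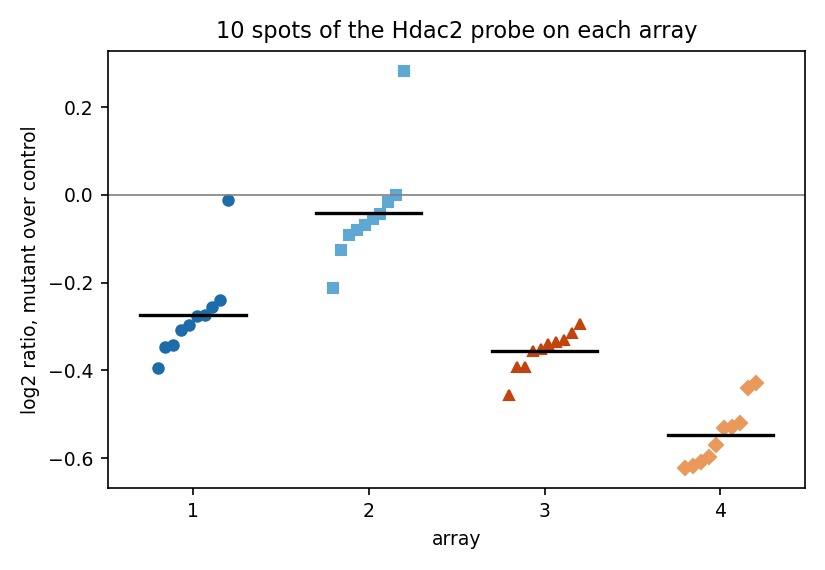
Log2 ratio of mutant over control (vertical axis) for each of the 10 spots of the Hdac2 probe on each array (horizontal axis), ordered by value, with the mean of the spots as a black line. Apart from 2 spots of array 2, all lie below 0, and the spots of arrays 3 and 4 lie closer together than those of arrays 1 and 2.

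Hdac8, an X-linked deacetylase, was not read alike by its probes. The probe printed above read -0.41, -0.40, -0.20 and 0.36. Arrays 1 to 3 were below 0 and array 4 above it, so the mean of -0.16 ± 0.36 (SD, n = 4; 95% interval -0.51 to 0.18) hides a split, and its adjusted p was 0.721 (limma). The mean was -0.08 without array 1, -0.08 without array 2 and -0.34 without array 4, and over arrays 3 and 4 alone it was 0.08. The other probe (A_51_P481191, chromosome X from 99700320 to 99700379 in mm9), which lies further towards the 5′ side on the minus strand, read 0.06, -0.05, -0.26 and 0.07. Its mean of -0.05 ± 0.15 (SD, n = 4) was nearer 0. This other probe had a low mean level, 7.11 in mutant and 7.12 in control pools. Its ratios from the scanner intensities, turned as the deposited table, were -0.21, 0.02, -0.08 and 0.25, unlike the deposited ones. The levels of the printed probe were 7.36 to 7.87 in mutant pools, against 7.47 to 7.90 in control pools, and overlapped.

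Hdac3 was set against the other class I enzymes within each array, which asks whether the targeted gene was lower than its relatives. The difference from the mean of Hdac1, Hdac2 and Hdac8 was 0.06, -0.33, -0.31 and -1.07, so array 1 lay near 0 and array 4 furthest below it. The mean difference of -0.41 ± 0.47 (SD, n = 4) gave p = 0.25 in an exact two-sided sign-flip permutation test, which cannot go below 0.13 with 4 arrays, and 0.333 after adjustment over 4 such differences. Without array 4 the mean difference was -0.19. Hdac3 minus Hdac1 was below 0 on 4 of 4 arrays, with a mean of -0.51 ± 0.43 and the smallest possible exact p of 0.13. Hdac3 minus Hdac2 averaged -0.29 ± 0.29 (exact p = 0.25) and Hdac3 minus Hdac8 averaged -0.43 ± 0.75 (exact p = 0.375), each below 0 on 3 of 4 arrays.

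Ncor1, the scaffold that binds HDAC3, was read by 4 probes, of which only the dimmest had a mean above 0. The brightest (A_52_P561927, designed on transcript variant 2, chromosome 11 from 62134649 to 62134708 in mm9) read 0.01, 0.04, -0.32 and -0.33. The values were near 0 on arrays 1 and 2 and below it on arrays 3 and 4, which differ in dye orientation. The mean was -0.15 ± 0.20 (SD, n = 4; 95% interval -0.39 to 0.09) with an adjusted p of 0.655 (limma), and it was -0.09 without array 3 and -0.09 without array 4. The probe nearest the 5′ side (A_55_P2165969, variant 3) repeated this pattern with 0.02, 0.01, -0.28 and -0.32.

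The Ncor1 probe nearest the 3′ side (A_55_P2121466, variant 1) read -0.28, -0.05, -0.38 and -0.07, below 0 on all 4 arrays, with a mean of -0.19. The fourth (A_55_P2165974, designed on an Ensembl transcript, between the brightest probe and the 5′ one on the chromosome) read -0.03, 0.07, 0.33 and 0.14, with a mean of 0.12. So 3 of the 4 means were below 0 and each of the 4 probes was designed on its own transcript record. Levels of the brightest probe were 9.85 to 10.21 in mutant pools, against 9.97 to 10.53 in control pools, and overlapped.

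Tbl1x, an X-linked gene for a WD40-repeat subunit that helps exchange corepressors for coactivators, had the highest mean of the 8 members. Its 1 probe (chromosome X from 74905279 to 74905338 in mm9, plus strand) read 0.19, 0.25, 0.58 and 0.28, with array 3 highest. The mean was 0.33 ± 0.17 (SD, n = 4; 95% interval 0.11 to 0.54), a ratio of 1.25, and its adjusted p was 0.582 (limma). The log2 level was 12.24, 12.42, 12.76 and 12.43 in the mutant pools, against 12.06, 12.17, 12.19 and 12.15 in the control pools. Every mutant pool read above every control pool, and of the brightest probes of the 8 members this was the only one with groups that did not overlap in level. Among 19698 genes with a level in every pool, 264 (1.34%) had all mutant pools above all control pools and 277 (1.41%) had all mutant pools below. With mutant as Cy5 on all arrays the Tbl1x groups overlapped, the mean was -0.10, and 790 genes (4.01%) had all mutant pools above and 902 (4.58%) all below.

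Tbl1xr1, the paralogue of Tbl1x on chromosome 3, also had means above 0 at both of its probes. The brighter probe (22108518 to 22109364 in mm9) read 0.27, 0.32, 0.48 and -0.07, so array 4 differed in sign. Its mean was 0.25 ± 0.23 (SD, n = 4; 95% interval 0.00059 to 0.50), a ratio of 1.19, and the adjusted p was 0.584 (limma). The other probe (A_55_P1987396, 22115377 to 22115436) read 0.27, 0.29, 0.12 and 0.11, above 0 on all 4 arrays, with a mean of 0.20 ± 0.09. Levels of the brighter probe were 9.57 to 9.85 in mutant pools, against 9.33 to 9.62 in control pools, and overlapped.

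Gps2, the small subunit that bridges NCoR and the WD40 subunits, had probe means between 0.11 and 0.14. Its brighter probe (chromosome 11 from 69730034 to 69730093 in mm9) read 0.16, 0.12, 0.22 and -0.05, above 0 on 3 of 4 arrays. The mean was 0.11 ± 0.12 (SD, n = 4; 95% interval -0.08 to 0.30) with an adjusted p of 0.676 (limma). The second probe, just upstream, read 0.10, -0.05, 0.57 and -0.07, so the probes shared a high array 3 and differed on array 2. The level of the brighter probe was 11.42 to 11.69 in mutant pools, against 11.47 to 11.52 in control pools.

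**Figure D3:**
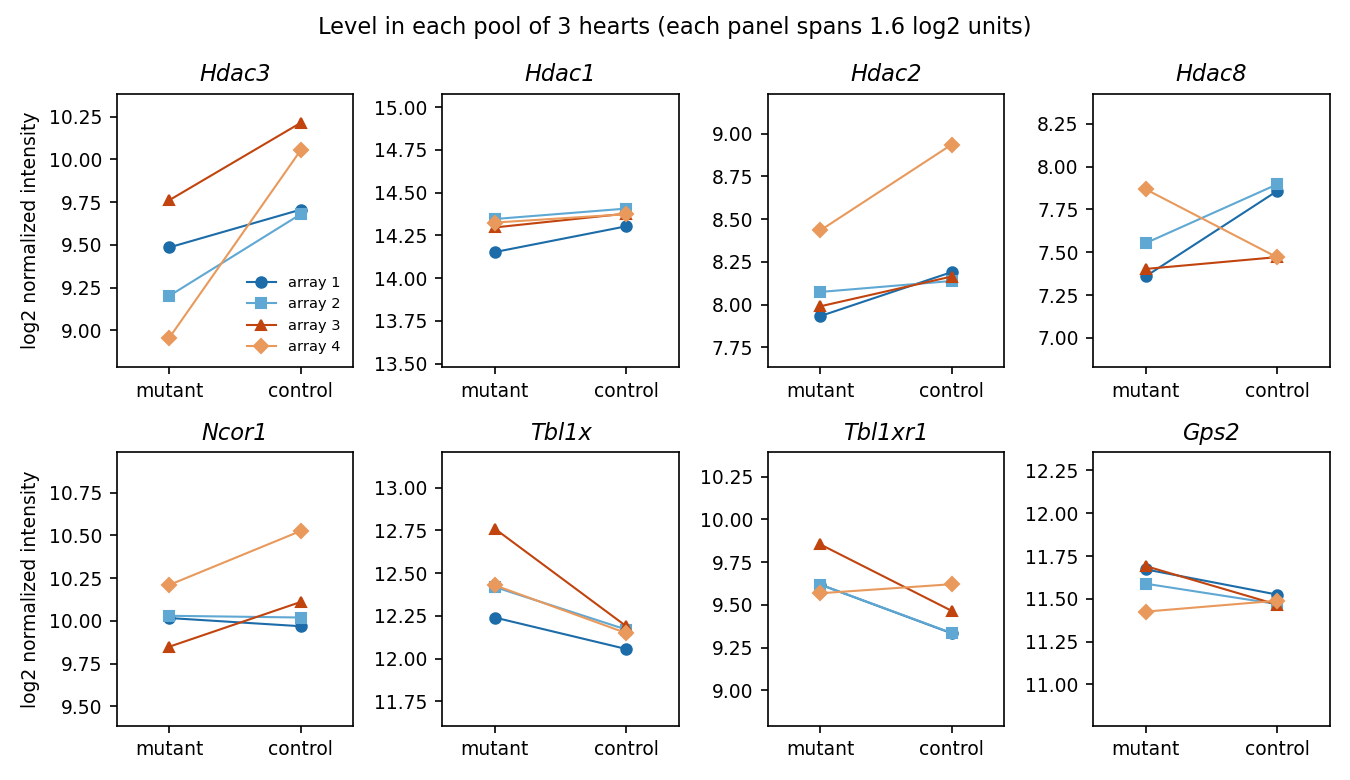
Log2 normalized intensity (vertical axis, 1.6 log2 units in each panel) in the mutant pool (left) and the control pool (right) for the brightest probe of each member, with a line joining the 2 pools of an array. The lines of Hdac3 rise towards control on every array, those of Tbl1x fall towards control on every array, and both pools of array 4 stand above the rest for Hdac2.

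**Figure D4:**
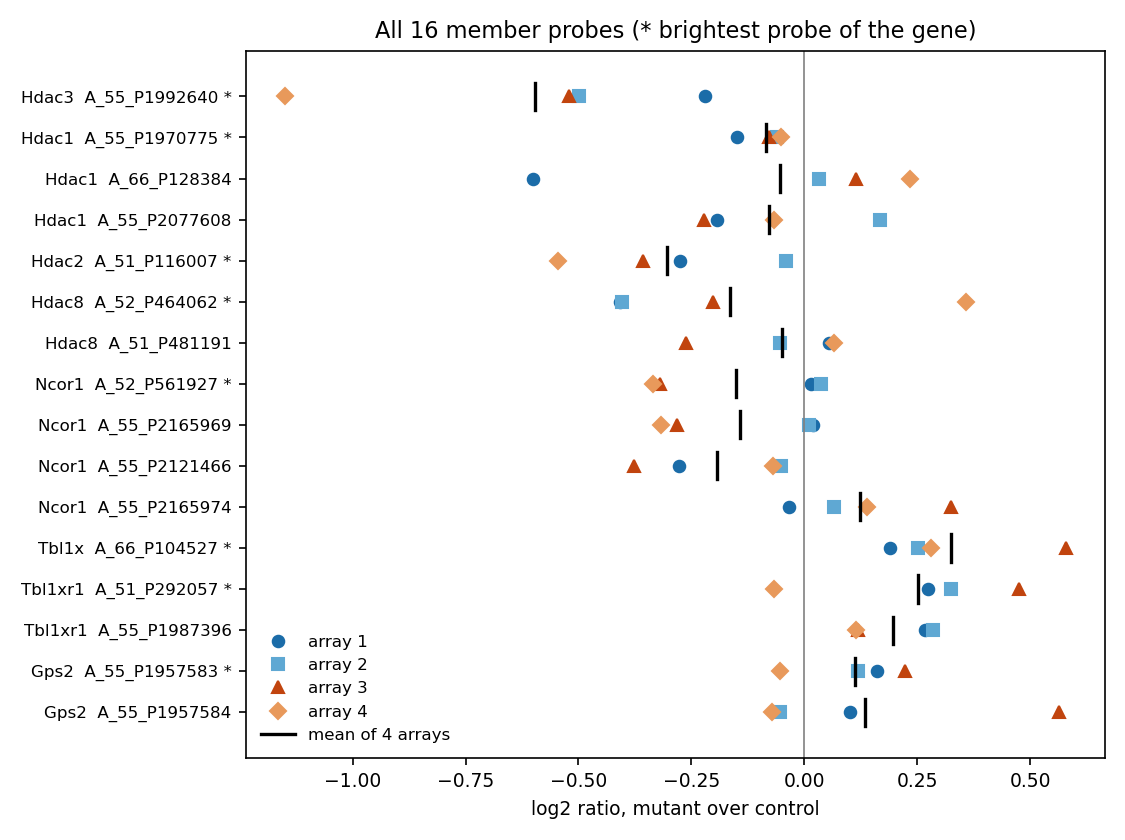
Log2 ratio of mutant over control (horizontal axis) at each of the 16 member probes (rows, with the brightest probe of a gene marked by a star), by array, with the mean as a black bar. The Ncor1 rows lie on both sides of 0, and of the 16 probes 4 are below 0 and 2 above 0 on all arrays.

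Tbl1x and Hdac8 are X-linked, so genes that follow the sex of the pooled embryos are given beside them; these genes were chosen after the members' values were seen. Xist, the transcript that coats the inactive X, read 1.06, 0.92, -0.34 and -0.30. Ddx3y, a Y-linked RNA helicase, read -2.24, -0.38, -0.40 and 0.46. Eif2s3y, a Y-linked translation factor, read -2.44, -0.46, 0.48 and 0.59. On arrays 1 and 2 the mutant pool thus had more Xist and less of both Y-linked transcripts, which were lowest on array 1. Uty, also Y-linked, read -0.97, -0.38, -0.12 and 0.29, while Kdm5d, well above background in only 2 mutant and 1 control pools, read -0.38, -0.06, 0.69 and 0.17. Tbl1x was above 0 on arrays where Xist was above 0 and on arrays where it was below 0. The printed Hdac8 probe was lowest on arrays 1 and 2, where Xist was highest. In the deposited ratios the other Hdac8 probe was not, and was lowest on array 3 (-0.26). In the scanner intensities, turned as the deposited table, this other probe was lowest on array 1 (-0.21). These comparisons rest on the deposited signs, since the labelled reading turns over the signs of arrays 3 and 4, for Xist as well. With mutant as Cy5 on all arrays, Tbl1x read 0.18, 0.25, -0.57 and -0.28. The printed Hdac8 probe then read -0.50, -0.34, 0.07 and -0.40. The part of embryo sex in the Tbl1x and Hdac8 results was not tested.

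Read with the labelled dyes, that is with mutant as Cy5 on all 4 arrays, 4 of the 8 members changed sign. These means come from the scanner intensities. Hdac3 was then 0.21 (adjusted p = 0.709, limma), Hdac2 was 0.09, Ncor1 was 0.16 and Tbl1x was -0.10. Hdac1 (-0.02), Hdac8 (-0.29), Tbl1xr1 (0.06) and Gps2 (0.03) kept their signs, and Hdac3 minus the mean of the other class I genes became 0.29. By sign, 0 of 8 members were then below 0 on all 4 arrays, against 2969 of all genes (15.1%), and 1 was above 0 on all 4 (Ncor1), against 2165 (11%). At an unadjusted p under 0.05, Hdac8 was lower and 0 members were higher, against 1717 genes lower and 1251 higher of all 19710. Under this reading 99 of all genes were higher and 9 lower at an adjusted p of 0.05 (limma). Because dye and genotype then coincide on every array, these counts cannot be assigned to the mutation or to the dye. With the deposited signs, the scanner intensities after loess gave -0.56 for Hdac3, -0.25 for Hdac2, 0.32 for Tbl1x and 0.23 for Tbl1xr1, close to the deposited ratios.

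**Figure D5:**
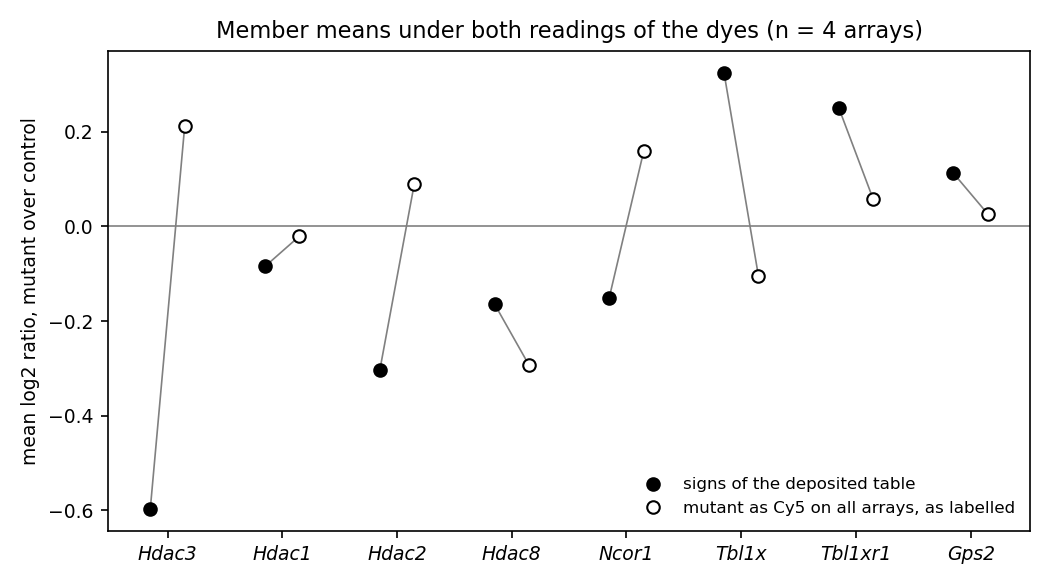
Mean log2 ratio of mutant over control over 4 arrays (vertical axis) of each member with the signs of the deposited table (filled) and with mutant as Cy5 on every array, as labelled (open). Hdac3, Hdac2, Ncor1 and Tbl1x cross 0 between the readings, and the other 4 do not.

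The labelled tissue was checked against marker genes. All 8 cardiomyocyte markers were well above background in every pool, with a summed log2 level of 19.98 to 20.23 in mutant pools, against 19.72 to 20.31 in control pools. The median ratio of these markers was 0.16 and 0.43 on arrays 1 and 2, against -0.20 and -0.40 on arrays 3 and 4. The 8 primitive erythroid markers, which report embryonic red cells, all had means below 0, with medians of -0.08, -0.65, -0.57 and -0.40 on arrays 1 to 4. Their summed level was 18.29 to 19.17 in mutant pools, against 18.98 to 19.34 in control pools. All 4 epicardial markers also had means below 0 (median -0.26). Their summed level was 12.13 to 13.17 in mutant pools, against 12.41 to 13.14 in control pools. The epicardial medians on arrays 1 to 4 were 0.02, -0.585, -0.30 and -0.07, and 1 of the 4 genes (Tcf21) was below 0 on all arrays. The erythroid and epicardial lists had medians of their means on the same side of 0 as Hdac3 and Hdac2, and their part in those ratios was not tested. With mutant as Cy5 on all arrays, 4 of the 8 erythroid means and 2 of the 4 epicardial means were below 0 (medians -0.0095 and -0.0077). All 8 cardiomyocyte means were then above 0 (median 0.22), in a reading where dye and genotype cannot be told apart.

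Other markers bore on the labels. For replicates 2 to 4 the description field speaks of embryonic stem cells where the titles speak of hearts. Pou5f1, a defining pluripotency factor, did not stand well above background in any pool. The other 5 pluripotent cell markers did, and their list had a median of 0.07. Foxd3 of the neural crest list and Myf5 and Myog of the skeletal muscle list were not well above background in any pool. With the deposited signs the medians were 0.02 for 6 endothelial markers, 0.17 for the 4 foregut endoderm markers past the filter, -0.02 for 3 of neural crest, 0.03 for 2 of neural tube and 0.16 for 3 of somite and skeletal muscle.

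The other genes of these corepressor pathways were read through 6 lists, chosen with earlier results of these data known. Of 63 genes 62 passed the filter (Coro2a did not), and 0 passed at an adjusted p of 0.05 (limma, lowest adjusted p 0.582). At an unadjusted p under 0.05, 1 was lower (1.61%) and 2 were higher (3.23%), no more than among all genes. The ratio was below 0 on all 4 arrays for 6 (9.68%) and above 0 on all 4 for 9 (14.5%), and the median was 0.03, against 0.01 for all genes. With mutant as Cy5 on all arrays, 8 were lower and 2 higher at an unadjusted p under 0.05. Of all 19710 genes, 1717 were then lower and 1251 higher. The median of the lists was then -0.03, against -0.02 for all genes, and their lowest adjusted p was 0.13 (limma).

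Among 7 measured genes of the NCoR complex and its partners, the median was 0.01. Spen, a large corepressor that joins RBPJ to the NCoR complex, read 0.24, 0.22, 0.29 and 0.17, so that all 4 arrays were above 0 and close together, while with mutant as Cy5 on all arrays its mean was -0.0012. Its mean was 0.23 ± 0.05 (SD, n = 4) with an adjusted p of 0.582 (limma). Rbpj, the DNA-binding factor of Notch signalling, had a mean of -0.08 with mixed signs.

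The 14 other deacetylases had a median of 0.08, with 4 genes above 0 and 2 below 0 on all arrays. Among all genes 10.0% were above and 9.73% below 0 on all arrays. With mutant as Cy5 on all arrays, 1 of the 14 was above and 1 below 0 on all arrays, and the median was -0.06. Sirt6, an NAD-dependent chromatin deacetylase, read 0.19, 0.15, 0.59 and 0.07, a mean of 0.25. Hdac11, the class IV enzyme, read -0.12, -0.25, -0.39 and -0.03, a mean of -0.20. Sirt1, which acts on histones and transcription factors, read -0.19, -0.08, -0.28 and -0.09, a mean of -0.16. With the deposited signs each had 1 sign on all arrays and was furthest from 0 on array 3, and their adjusted p-values lay between 0.584 and 0.606 (limma). With mutant as Cy5 on all arrays, Sirt6, Hdac11 and Sirt1 had mixed signs, with means of -0.07, -0.07 and 0.03.

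The complexes that hold HDAC1 and HDAC2 had medians near 0, at -0.04 for 16 SIN3 genes, 0.07 for 10 NuRD genes, -0.02 for 9 CoREST genes and -0.005 for 6 genes of the MiDAC and MIER complexes. In the SIN3 list Brms1l, a SIN3 subunit, read -0.13, -0.21, -0.47 and -0.23 (mean -0.26), and Arid4a, a subunit that binds the retinoblastoma protein, read 0.12, 0.33, 0.23 and 0.19 (mean 0.22). These were the list's 2 genes at an unadjusted p under 0.05, in opposite directions. With mutant as Cy5 on all arrays, Brms1l (mean 0.08) and Arid4a (mean -0.03) had mixed signs. Ing2, which reads methylated histone tails, had a mean of -0.28 with mixed signs.

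In the NuRD list, 9 of 10 means were above 0 with the deposited signs, against 3 of 10 with mutant as Cy5 on all arrays. With the deposited signs the list medians on arrays 1 to 4 were -0.02, -0.03, 0.25 and -0.02, so only array 3 lay above 0. Gatad2b, a structural subunit, read 0.30, 0.20, 0.96 and 0.03 (mean 0.37), so its mean leaned on array 3. Mbd2, which binds methylated DNA, was the exception, at -0.13, -0.14, -0.64 and -0.11 (mean -0.26). With mutant as Cy5 on all arrays, Gatad2b (mean -0.10) and Mbd2 (mean 0.12) had mixed signs. Chd4, the remodelling ATPase, had a mean of 0.15 with mixed signs. Of the CoREST genes, Zmym3 had a mean of -0.14, Gse1 of -0.10 and Rcor2 of 0.20, and Gse1 alone of these 3 kept 1 sign. The MIER scaffolds Mier3 (-0.09), Mier2 (0.10) and Mier1 (0.07) all had mixed signs.

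The genes whose 4 ratios lay nearest to those of Hdac3, by root mean square difference over 4 arrays and 19697 genes, were Sobp (0.195), Dep1 (0.227), Phox2a (0.229), Rbl2 (0.230) and Rtn4rl1 (0.231). Sobp, a nuclear zinc-finger gene, read -0.06, -0.43, -0.53 and -0.80. Phox2a, a homeodomain factor of autonomic neurons, read -0.36, -0.59, -0.82 and -0.85. Rbl2, which encodes the pocket protein p130, read -0.20, -0.37, -0.39 and -0.73. All 3 were below 0 on every array and lowest on array 4, as Hdac3 was, a likeness that comes with the way they were chosen. With mutant as Cy5 on all arrays their means were 0.19, 0.13 and 0.07. Rtn4rl1, a Nogo receptor relative, was 0.02 on array 1 and below 0 on the others. Dep1 is a name from the array design that the RefSeq table does not hold.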

How the data were processed

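Total RNA of pooled E9.5 hearts was measured on 4 two-colour arrays. The scanner files hold, per the file headers, Cy3 and Cy5 spot intensity and a log10 ratio of processed signals from Agilent Feature Extraction 11.5.1.1 (8.5.1.1 in the submitters' processing notes). The authors deposited a table of normalized log2 ratios, of 43173 rows with 153 controls and 5 to 22 missing values a column, by a method that the sources used here do not give; column medians were -0.029, -0.017, 0.017 and 0.023. Rows were joined by probe name, and spots of a probe averaged.

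Each channel had 66.6% to 71.2% of its probes well above background, 0 spots were saturated, and 308 to 407 outlier spots an array were left out of scanner intensities. A probe was kept if every mutant pool or every control pool read it well above background (25483 probes). Of all probes, 27508 were named by RefSeq accession. Brightest probes stood for 19710 genes. Levels are log2 intensities after normexp (offset 50), loess and Aquantile normalization. Ratios were tested against 0 with limma 3.58.1 in R 4.3.3 (lmFit, eBayes, Benjamini-Hochberg over all genes, threshold 0.05). P-values measure the spread between these pools, and the number of arrays limits the precision.

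The mutant against control fit was tested on simulated data of 19710 genes, of which 200 were changed. It called 40% of the 200 at a change of 0.5 and 96% at a change of 1, with 16 false calls at each size. The members and lists were chosen with earlier results of these data known. Genes named were all members, the 3 of smallest unadjusted p in each pathway list, and the 5 nearest Hdac3; 1 gene that the rule picked is not reported here. Alternatives were other signal columns, centring, filters, weights, dye term, array subsets, labelled signs, 8 separate channels and leaving out each array.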

Additional observations from a re-analysis of the deposited data

Results flagged for a closer look

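The control pool of array 4 read the Hdac2 probe at a log2 level of 8.94, far above the other 3 control pools (8.14 to 8.19). Its gap to the nearest was 0.935 of the whole range, above Dixon's critical value of 0.83. It was 1 of 48 sets of 4 values examined, and chance marks about 1 in 20. The mutant pool of the same array was also the highest of its group, at 8.43.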

How the results depend on the processing

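No member passed an adjusted p of 0.05 under any of 15 alternatives. Hdac3 ranged from -0.84 to 0.21 (adjusted p 0.101 to 0.98, limma). With mutant as Cy5 on all arrays, Hdac3 was 0.21, Hdac2 0.089, Ncor1 0.16, Tbl1x -0.10 and Hdac3 minus the mean of the other class I genes 0.29. In that setting, where dye and genotype coincide, 99 genes were higher and 9 lower at an adjusted p of 0.05. At an unadjusted p under 0.05, 1251 were higher and 1717 lower. Median centring turned Hdac1 to 0.048 and gave 598 higher and 263 lower genes (unadjusted), against 767 and 910. Arrays 3 and 4 alone put Hdac8 at 0.078, with 1402 higher and 1527 lower. Arrays 1 and 2 alone put Ncor1 at 0.026, with 66 higher and 14 lower adjusted and 2745 and 2535 unadjusted. Array weights (3.25, 2.17, 0.285 and 0.498) gave 2 higher and 2 lower adjusted, 2444 and 2111 unadjusted. A dye term gave 1425 higher and 1585 lower. With no replicate block, the 8 channels taken as separate samples, 330 were higher and 328 lower (unadjusted), and Hdac3 was -0.56; the pairing within an array is the design's. Leaving out 1 array at a time gave 0 to 2 genes higher at an adjusted p of 0.05, the 2 without array 1, and no member changed sign. The cause of these moves was not tested. With 4 arrays, changes near 0.5 on the log2 scale were often missed in simulation.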
